A study of Homo sapiens with 18 samples.

Results

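The question here is how far the response of a drug-resistant cancer cell population to its drugs differs from the response of the cells it came from. NCI-H460 is an established line of large-cell lung cancer that grows as adherent epithelial cells, and its genotype is labelled WT. The series holds 18 RNA sequencing libraries of parental NCI-H460 and of a pair of populations that tolerate all-trans retinoic acid (ATRA) and decitabine. The 12 libraries compared here are those of the parental cells and of resistant population 2, with 3 biological replicates in each of 4 groups. Parental DMSO and resistant 2 DMSO cells received the solvent (0.7% v/v in RPMI-1640). Parental treated and resistant 2 treated cells received 2 µM ATRA with decitabine, 50 µM per the labels. Treatment began 24 h after seeding and RNA was taken at 72 h, so all 4 groups were exposed for 48 h, and no group was sampled earlier or with either drug alone. How the resistant populations were derived, and whether each is 1 clone, is not given in the sources used here. The labels do not say whether the replicates were separate cultures, so p-values measure the spread between these samples only.

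Decitabine replaces cytidine in newly made DNA and traps DNA methyltransferases there. The following divisions then thin out DNA methylation, and genes kept silent by it, such as germline genes, can be transcribed. Trapped enzyme also damages DNA and can activate p53, the transcription factor that halts the cell cycle. ATRA binds the retinoic acid receptors, transcription factors that occupy response elements near their target genes and switch them on.

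Each gene has a response in each population: the treated libraries minus the DMSO libraries of that population, on a scale of log2(CPM + 1), where CPM is the read count per 1e6 reads of the library after scaling the 12 libraries together. The quantity reported is the response of resistant 2 minus the response of parental cells. A negative value means a weaker rise or a stronger fall in resistant 2, and a positive value the reverse. Depth was 115503182 to 149112930 reads per library over the genes used. A gene was called at an adjusted p under 0.05 (limma over 21112 genes, Benjamini-Hochberg). Because 1 is added to each level, responses of genes near or below 1 CPM are compressed. Values of the treated libraries had lost their decimal points in the deposited table and were restored by a model, as described under processing.

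The labelled cell type was checked on epithelial markers. Keratins KRT8 and KRT18, structural proteins of simple epithelia, were high in every group (means of 739 ± 136 and 678 ± 23.7 CPM (SD, n = 3) in parental DMSO cells and 667 ± 191 and 452 ± 48.4 CPM in resistant 2 DMSO cells). E-cadherin (CDH1), the adhesion protein of epithelial junctions, was at 0.0166, 0 and 0.0178 CPM in parental DMSO libraries and at 0.00873, 0 and 0.0186 CPM in resistant 2 DMSO libraries, that is, near 0 in both. Of 16 immune markers 5 were tested, and their summed level was 0.07996 to 0.141 CPM in parental DMSO, 1.12 to 1.27 CPM in parental treated, 0.840 to 1.08 CPM in resistant 2 DMSO and 1.03 to 1.28 CPM in resistant 2 treated libraries. The part of such cells in the results was not tested. CD3E, a T cell marker, had a mean of at most 0.182 CPM in any group.

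A response to the drugs was called for 62.9% of the tested genes in parental cells and 15.6% in resistant 2. In parental cells 7590 genes rose (36% of those tested) and 5684 fell (26.9%). In resistant 2 cells 1798 rose (8.52%) and 1485 fell (7.03%). Same-numbered resistant 2 libraries deviated together, and with that pairing as a block within each population 2789 rose and 3091 fell there, and the response was higher than in parental cells for 5054 genes and lower for 7312. The count of falling genes in resistant 2 was 766 without resistant 2 DMSO replicate 2 and 919 without resistant 2 treated replicate 3. The response was 2-fold or more in either direction, called or not, for 2495 genes in parental cells and 288 in resistant 2. The response of resistant 2 was higher than that of parental cells for 3691 genes (17.5%) and lower for 6049 (28.7%), so 46.1% were called and 11372 genes were not. A filter on low values required at least 10 reads in at least 3 libraries. Without parental treated replicate 1, 2 or 3 it passed 19707, 19689 and 19662 genes. Of these, 4314, 4240 and 4262 had a lower response, and 5701, 5678 and 5708 rose in parental cells. For genes that passed only through the treated parental libraries the filter fixed the direction. The split between directions depends on the scaling: quantile normalization, which forces all libraries to 1 distribution, gave 5627 higher and 4641 lower, or 54.8% higher against 37.9%. The share of rising genes among those called in parental cells likewise went from 57.2% to 42.2%.

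The responses were in part alike in direction. No library serves in both, but 1 estimate of each gene's spread over the 4 groups entered both, which ties their calls. Of the 7590 genes that rose in parental cells, 1272 (16.8%) rose in resistant 2, 6078 (80.1%) were not called there and 240 (3.16%) fell. Those 1272 genes were 70.7% of the genes that rose in resistant 2. Over all genes 36% rose and 26.9% fell in parental cells, and 8.52% rose and 7.03% fell in resistant 2. Of the 5684 genes that fell in parental cells, 888 (15.6%) also fell in resistant 2, where they made up 59.8% of the falling genes, and 182 (3.2%) rose. Across all 21112 genes Pearson's r between the responses was 0.452 and Spearman's rho was 0.431. Genes are not independent replicates, and both responses share 1 scaling and 1 fit.

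**Figure D1:**
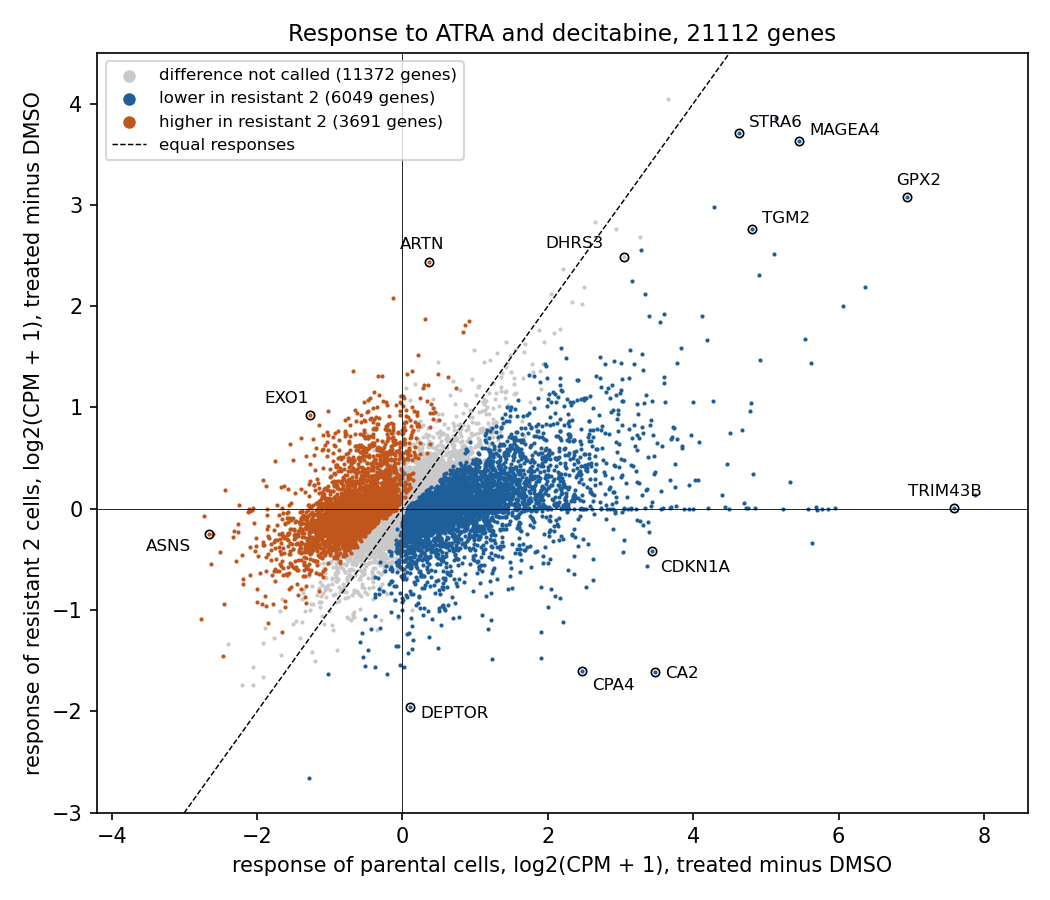
Each point is 1 of 21112 genes, with its response in parental cells on the x axis and in resistant 2 cells on the y axis, both as treated minus DMSO in log2(CPM + 1). Blue genes (6049) responded lower in resistant 2, orange genes (3691) higher, and grey genes (11372) were not called. Most coloured genes lie near the horizontal line at 0, away from the dashed line of equal responses.

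Most targets of p53 rose in parental cells, and few were called in resistant 2. Of 37 listed and 35 tested, 30 rose in parental cells and 0 fell, while 1 rose and 3 fell in resistant 2. With the block within populations 6 rose there, and without its treated replicate 1 the number was 4. The response was lower in resistant 2 for 31 and higher for 0, with a median difference of -1.47 against -0.04 over all genes tested. CDKN1A encodes the cell cycle inhibitor p21. It stood at 35.8, 47.2 and 44.8 CPM in parental DMSO libraries and at 480.1, 445 and 473 CPM after treatment. In resistant 2 it stood at 1253, 979 and 885 CPM with DMSO and 829, 758 and 723 CPM with the drugs. All resistant 2 DMSO libraries were thus above all parental treated libraries, and the level fell with the drugs. The responses were 3.43 in parental cells and -0.42 in resistant 2, a difference of -3.85 ± 0.182 (SE) (adjusted p = 1.11e-08).

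MDM2, the ubiquitin ligase that restrains p53 and is itself its target, rose from 145, 143 and 165 CPM to 1367, 1175 and 1141 CPM in parental cells. In resistant 2 it went from 538, 557 and 502 CPM to 566, 729.9 and 706 CPM, which was not called (adjusted p = 0.0702), and the responses differed by -2.69 ± 0.153 (SE) (adjusted p = 5.27e-08). Here the resistant 2 libraries lay between the parental DMSO and parental treated ones. TP53INP1, which promotes p53-dependent cell death, went from 3.97, 3.47 and 4.58 CPM to 87.1, 81.3 and 80.3 CPM in parental cells and from 76.1, 88.03 and 76.1 CPM to 85.1, 109 and 99.7 CPM in resistant 2, so the untreated resistant 2 level overlapped the treated parental one. SPATA18, which acts in mitochondrial quality control, had the same layout, with 1.85, 2.03 and 2.203 CPM, 53.4, 45.03 and 46.2 CPM, 42.4, 47.3 and 41.2 CPM and 45.5, 60.9 and 53.9 CPM in the 4 groups in the same order. The oxidoreductase TP53I3 was higher in parental treated libraries (314, 212 and 243 CPM) than in any other (17.8, 16.2 and 13.1 CPM in parental DMSO, 48.5, 70.6 and 103 CPM in resistant 2 DMSO, 66.7, 78.7 and 110.3 CPM in resistant 2 treated). For TP53INP1, SPATA18 and TP53I3 the responses differed by -3.79, -3.74 and -3.70 (highest adjusted p = 5.37e-06). In resistant 2, MDM2, TP53INP1, SPATA18 and TP53I3 were each higher in the treated library of every numbered pair, while CDKN1A was lower in every pair. A missing call there does not show that these genes did not respond.

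**Figure D2:**
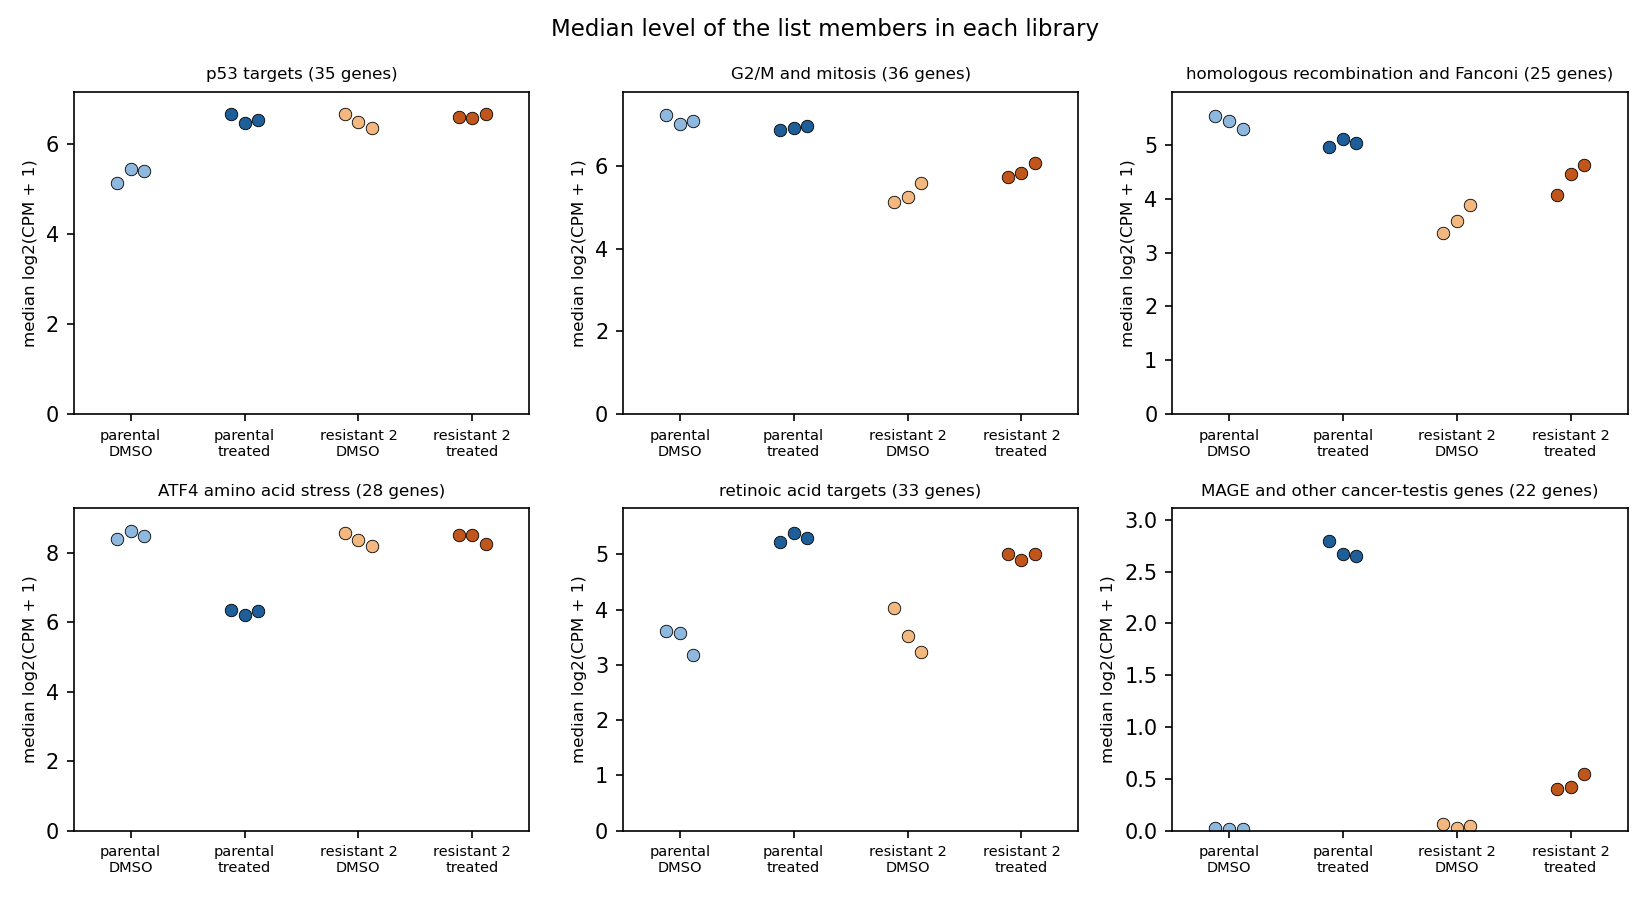
Each point is 1 library and shows the median level, in log2(CPM + 1), of the tested members of a gene list, with the 4 groups on the x axis and 1 panel for each of 6 lists. The p53 targets of resistant 2 DMSO libraries sit at 6.37 to 6.67, level with treated parental libraries (6.48 to 6.67) and above parental DMSO libraries (5.14 to 5.46), while the ATF4 list is at 6.23 to 6.37 in treated parental libraries and at 8.21 to 8.65 in the other libraries.

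Some of the genes near 0 in both untreated populations came on in treated parental cells, and fewer did so in treated resistant 2 cells. Of 2545 tested genes with a mean under 0.1 CPM in both DMSO groups, 263 reached 1 CPM in treated parental cells and 12 in treated resistant 2 cells, and 11 genes did so in both. Such genes could pass the filter on low values through a treated group alone. Where that group was the treated parental libraries, the filter fixed the direction, so these counts are a description. The median level of the 263 genes was 2.08 CPM in treated parental cells, which they were chosen on, and 0.0897 CPM in treated resistant 2 cells. Of the 12 genes that reached 1 CPM in resistant 2, 8 code for proteins, among them ADIRF, DUOX1, FMR1NB, GPX2, GTSF1, TKTL1 and VCX3B. These were named after their values were seen.

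Of the 6 genes named for the largest negative differences among those that rose in parental cells, 4 were TRIM43B, TRIM49, TRIM49C and TAF11L14, and the other two were VCAN and HSPA6. DUX4 is a transcription factor of cleavage-stage embryos, and the list of its known targets holds TRIM43B, TRIM49, LEUTX and TPRX1. Of 23 genes in this list, 8 passed the filter on low values, 7 of them only through the 3 treated parental libraries, where they are high. For those 7 the filter fixed the direction of the difference, so the values are a description. All 8 were called as rising in parental cells and 0 in resistant 2. The paired-like homeobox gene LEUTX had 0 reads over the 3 parental DMSO libraries and stood at 21.9, 29.6 and 32.9 CPM after treatment. In resistant 2 it had 0 reads with DMSO and 2 reads over the treated libraries. TRIM49, a tripartite motif gene with near-identical copies, was at 48.5, 60.0 and 63.9 CPM in treated parental libraries (1 read over the DMSO libraries) and had 0 and 0 reads in resistant 2. Resistant 2 was thus at or near 0 in both conditions for these genes. TRIM43B went from 1 read to 148, 209 and 229 CPM in parental cells and from 0 to 2 reads in resistant 2. TRIM49C (41.9, 53.6 and 58.5 CPM) and TAF11L14 (48.4, 70.2 and 68.4 CPM) had the same pattern, with 4 reads and 1 read over the treated resistant 2 libraries, and edgeR called neither difference. Reads of TRIM43B, TRIM49, TRIM49C and TAF11L14 can be split between copies, so their single values are uncertain. On the reads, edgeR's quasi-likelihood test called 1 of the 8 differences. Without any 1 of the 3 parental treated libraries, the same filter passed 1 member. HSPA6, a stress-induced heat shock protein outside these families, stood at 0.671, 0.424 and 0.498 CPM and 76.5, 78.98 and 80.2 CPM in parental cells and at 0.532, 0.325 and 0.754 CPM and 0.493, 0.338 and 0.739 CPM in resistant 2 (difference -5.71 ± 0.179 (SE), adjusted p = 3.75e-10).

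Cancer-testis genes are normally expressed in germ cells only. Of 45 listed, 22 were tested, and of these 21 rose in parental cells and 11 in resistant 2, and the response was lower in resistant 2 for 20. Of the 22, 5 passed the filter on low values only through the 3 treated parental libraries, which fixes the direction of their difference, so these counts are a description. Without any 1 of those libraries 16 rose in parental cells and 15 had a lower response, and over all libraries left out 8 to 12 rose in resistant 2. MAGEA4, an antigen gene of the X chromosome, went from 0.0166, 0.00831 and 0.00888 CPM to 39.5, 45.1 and 45.5 CPM in parental cells. It reached 13.9, 13.1 and 12.7 CPM in treated resistant 2 libraries, against 0.279, 0.126 and 0.0465 CPM with DMSO, so both populations responded without overlap of their libraries and the treated levels of the populations did not overlap either. The difference was -1.82 ± 0.145 (SE) (adjusted p = 1.02e-06). MAGEC2 reached 19.1, 20.5 and 20.8 CPM in parental cells and 0, 0.113 and 0.194 CPM in resistant 2. The transketolase-like gene TKTL1 reached 42.5, 46.6 and 51.7 CPM and 1.05, 3.06 and 3.01 CPM. Near-identical copies make single values of the MAGE, PAGE and SPANX families uncertain. Of 21 genes of meiosis and the piRNA pathway, which silences transposons in germ cells, 17 rose in parental cells and 9 in resistant 2, and the response was lower in 14 (9 with edgeR). With 1 library left out, 14 to 17 rose in parental cells and 12 to 15 had a lower response. Any member that passed the filter only through the treated parental libraries has a fixed direction here too. The count in resistant 2 was 5 without its DMSO replicate 1 or its treated replicate 2. GTSF1, a factor of that pathway, had 0 reads in parental DMSO libraries and stood at 10.8, 10.7 and 10.3 CPM after treatment, against 1.54, 3.39 and 3.31 CPM in treated resistant 2 libraries. The differences of MAGEC2, TKTL1 and GTSF1 were not called in edgeR.

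Some zinc finger genes of a cluster on the long arm of chromosome 19, whose KRAB domains recruit silencing complexes, changed in parental cells. Of 40 tested, 7 of them only through the treated parental libraries, 23 rose and 3 fell in parental cells, against 0 and 0 in resistant 2, and the response was lower in 19 (8 with edgeR). Over all genes 28.7% had a lower response. In edgeR 4600 of all 21112 genes did, so the edgeR share of this list was near that over all genes. Without parental treated replicate 1, 2 or 3, 13 rose in parental cells and 11, 9 and 9 had a lower response. Over all genes 4314 of 19707, 4240 of 19689 and 4262 of 19662 then had a lower response. ZNF677 had 0 reads in parental DMSO libraries and stood at 6.93, 8.71 and 7.88 CPM after treatment, and it had 0 and 2 reads in resistant 2, a difference that edgeR did not call. The promoters of ZNF677 and LEUTX are shown because both genes were off in untreated cells and were above 5 CPM in treated parental libraries and near 0 in the other groups, while their promoters differ in CpG content. CpG is the site that DNA methyltransferases modify, and each CG is in capitals. The sequences run from 250 bases before to 50 bases after the start site (RefSeq, GRCh38.p14), at chr19:53254774-53255073 on the minus strand for ZNF677 and chr19:39776203-39776502 on the plus strand for LEUTX. ZNF677 has 34 CpG sites in 300 bases and LEUTX has 5. The median was 14 over 27305 promoters and 25 over those of tested protein-coding genes. No methylation was measured here.
ZNF677: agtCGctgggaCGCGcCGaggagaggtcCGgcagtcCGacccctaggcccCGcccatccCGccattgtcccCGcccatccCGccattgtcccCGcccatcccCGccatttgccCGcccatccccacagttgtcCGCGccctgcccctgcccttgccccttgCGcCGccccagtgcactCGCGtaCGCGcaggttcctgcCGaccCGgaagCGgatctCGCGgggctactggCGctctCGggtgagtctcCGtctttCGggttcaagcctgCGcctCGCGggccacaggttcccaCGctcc
LEUTX: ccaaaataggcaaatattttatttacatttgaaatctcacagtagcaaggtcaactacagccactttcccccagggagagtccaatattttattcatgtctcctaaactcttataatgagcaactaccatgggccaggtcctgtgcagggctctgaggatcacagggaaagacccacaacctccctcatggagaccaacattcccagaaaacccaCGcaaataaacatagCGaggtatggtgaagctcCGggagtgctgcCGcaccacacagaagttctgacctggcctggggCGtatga

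Of 28 tested genes of epithelial identity and junctions, 21 rose in parental cells and 11 in resistant 2, and the response was lower in 15 and higher in 1. With 1 library left out, 16 to 21 rose in parental cells and 10 to 15 had a lower response, and edgeR gave 12 lower. For any member that passed the filter on low values only through the treated parental libraries, the filter fixed the direction. These counts are therefore a description. CDH1 reached 10.02, 10.3 and 10.1 CPM in treated parental libraries and 0.202, 0.255 and 0.38 CPM in treated resistant 2 libraries, a difference of responses of -3.12 ± 0.0787 (SE) (adjusted p = 8.51e-11). Desmoplakin (DSP), which anchors keratins at desmosomes, went from 3.11, 2.88 and 2.24 CPM to 80.2, 107 and 97.6 CPM in parental cells and from 12.5, 13.1 and 14.8 CPM to 21.4, 24.3 and 25.9 CPM in resistant 2. Both populations rose without overlap, and the difference was -3.90 ± 0.181 (SE) (adjusted p = 9.33e-09). The protease inhibitor SPINT2 reached 16.4, 16.1 and 17.1 CPM and 0.555, 0.451 and 0.649 CPM. EPCAM, an epithelial adhesion molecule, went from 0.778, 0.74 and 0.844 CPM to 6.49, 7.86 and 7.98 CPM in parental cells and from 0.0349, 0.0271 and 0.0372 CPM to 0.317, 0.293 and 0.56 CPM in resistant 2. Its difference depends on the scale: -1.81 (adjusted p = 2.39e-07) in log2(CPM + 1), but 0.29 (adjusted p = 0.642) as a ratio in edgeR. Its mean was 9.46-fold higher with the drugs in parental and 11.8-fold higher in resistant 2 cells.

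Of 33 tested targets of retinoic acid, 27 rose in parental cells and 5 fell, against 16 and 7 in resistant 2 (4 fell there without resistant 2 DMSO replicate 2). The response was lower in resistant 2 for 20, higher for 3 (6 without resistant 2 DMSO replicate 1), and the median difference was -0.65. DHRS3, a retinaldehyde reductase that limits retinoic acid, went from 11.3, 10.97 and 7.95 CPM to 98.6, 84.3 and 87.1 CPM in parental cells and from 53.7, 33.6 and 34.1 CPM to 245, 208 and 228 CPM in resistant 2. All libraries of a treated group lay above all DMSO libraries of the same population, and the difference of -0.56 ± 0.24 (SE) was not called (adjusted p = 0.0745). STRA6, the cell surface receptor for retinol-binding protein, went from 0.596, 0.465 and 0.142 CPM to 36.4, 31.9 and 31.7 CPM and from 6.25, 3.61 and 5.83 CPM to 91.4, 61.8 and 86.5 CPM. Its response was lower in resistant 2 by log2 value (-0.92, adjusted p = 0.0166), although the treated level was highest there. Without resistant 2 DMSO replicate 1 or 3 the adjusted p was 0.0569 and 0.0517. The crosslinking enzyme transglutaminase 2 (TGM2) reached 191, 194 and 202 CPM in treated parental and 1273, 1044 and 1087 CPM in treated resistant 2 libraries, from 4.32, 7.52 and 6.62 CPM and 212, 145 and 149 CPM with DMSO. Of the untreated resistant 2 libraries 1 lay above the treated parental ones and the other two below them, and the responses differed by -2.05 ± 0.244 (SE) (adjusted p = 2.97e-05).

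RARB, the retinoic acid receptor whose own gene is a classic target of the hormone, stood at 12.5, 11.3 and 11.5 CPM in parental DMSO libraries and 30.1, 30.2 and 30.5 CPM after treatment. In resistant 2 it went from 22.3, 31.001 and 33.3 CPM to 41.1, 57.3 and 54.8 CPM. It rose in both (1.29 and 0.81), with a difference of -0.49 ± 0.206 (SE) that was not called (adjusted p = 0.0721). RARA rose in both (0.69 and 1.26, difference 0.56, adjusted p = 0.0656), as did RARG (0.72 and 0.46, difference -0.26, adjusted p = 0.301), and RXRA, the partner receptor, was called in neither. The differences of DHRS3, RARB and RARA were called under some of the alternatives, and a missed threshold does not show that responses were alike. The RARB promoter is printed because the letters of a response element of the receptors are in it. A direct repeat was searched on both strands as AGGTCA or GGGTCA, 5 bases of any kind and AGGTCA, or as AGTTCA or GGTTCA, 5 bases and AGTTCA. It occurs in 11 of 27305 RefSeq promoters (0.0403%) and in 1 of 20 promoters available for the retinoic acid targets. The match in RARB, in capitals, begins 53 bases before the start site (chr3:25428013-25428312, plus strand, GRCh38.p14). This promoter was chosen for its match, so the match is a description.
RARB: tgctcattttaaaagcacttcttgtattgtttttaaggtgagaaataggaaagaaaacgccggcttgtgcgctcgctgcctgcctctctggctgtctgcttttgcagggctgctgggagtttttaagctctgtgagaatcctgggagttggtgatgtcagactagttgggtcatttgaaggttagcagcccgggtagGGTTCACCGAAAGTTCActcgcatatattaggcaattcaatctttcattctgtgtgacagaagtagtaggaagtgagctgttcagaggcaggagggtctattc

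Other genes of the retinoid system differed in how far the populations departed from each other. CRABP2, which carries retinoic acid to its receptors, went from 1.796, 1.94 and 1.58 CPM to 17.4, 16.1 and 15.9 CPM in parental cells and from 0.777, 0.677 and 0.884 CPM to 1.42, 1.04 and 1.08 CPM in resistant 2, where it was not called (adjusted p = 0.0679). The responses differed by -2.36 ± 0.138 (SE) (adjusted p = 6.8e-08). Of 32 HOX genes, 23 rose in parental cells and 11 in resistant 2 (17 with the block within populations), and the response was lower in 16. ALDH1A3, an enzyme that makes retinoic acid, rose in both (3.13 and 1.57). ALDH1A1, another such enzyme, fell from 81.4, 72.01 and 77.9 CPM to 44.97, 38.3 and 38.2 CPM and from 1874, 1503 and 1216 CPM to 1091, 757 and 608 CPM. Its responses were -0.92 and -0.92, with a difference of -0.01 ± 0.271 (SE) (adjusted p = 0.986), although resistant 2 held far more of the transcript. CYP26A1 and CYP26B1, which break retinoic acid down, were not tested.

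Of 36 genes of G2/M and mitosis, 16 fell and 1 rose in parental cells, while 28 rose and 0 fell in resistant 2. The response was higher in resistant 2 for 30 and lower for 0, with a median difference of 0.87. Untreated resistant 2 cells started from a lower level: 35 of the 36 genes were lower in resistant 2 than in parental cells with DMSO (6036 of all genes were, 28.6%), and 33 were still lower with the drugs (8172 of all genes, 38.7%). MKI67, the Ki-67 antigen of dividing cells, stood at 545, 478 and 466 CPM in parental DMSO and 467, 521 and 467 CPM in parental treated libraries, which overlap. In resistant 2 it went from 64.9, 76.2 and 97.9 CPM to 129, 146 and 179 CPM, without overlap, and the responses differed by 0.95 ± 0.207 (SE) (adjusted p = 0.00246). With quantile normalization this difference of MKI67 was 0.51 and not called (limma adjusted p = 0.0668). FOXM1, a transcription factor that drives mitotic genes, fell from 142, 123 and 112 CPM to 91.3, 85.3 and 82.4 CPM in parental cells and rose from 35.2, 35.6 and 43.5 CPM to 64.5, 67.3 and 80.1 CPM in resistant 2 (difference 1.40 ± 0.158 (SE), adjusted p = 1.88e-05). In bulk samples fewer cells in cycle and less RNA per cell cannot be told apart.

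Of 25 genes of homologous recombination and the Fanconi pathway, which repair broken and crosslinked DNA, 12 fell in parental cells and 20 rose in resistant 2, or 12 without resistant 2 treated replicate 3, and without parental DMSO replicate 1 the falling genes in parental cells were 7. The response was higher for 22 and lower for 0, with a median difference of 1.14. The exonuclease EXO1, which resects DNA ends, fell from 575, 547 and 609 CPM to 239.8, 234 and 241 CPM in parental cells and rose from 32.5, 40.2 and 56.0 CPM to 57.9, 90.8 and 98.5 CPM in resistant 2. Even so, treated resistant 2 libraries stayed below treated parental ones, and the responses differed by 2.20 ± 0.278 (SE) (adjusted p = 4.92e-05). RAD54L, a motor protein of recombination, was not called in parental cells (43.9, 42.4 and 37.1 CPM with DMSO, 30.1, 32.1 and 30.6 CPM treated, adjusted p = 0.151) and rose from 6.06, 9.22 and 12.6 CPM to 14.8, 23.3 and 27.3 CPM in resistant 2.

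Of 35 genes of G1/S and DNA replication, 8 fell and 3 rose in parental cells, while 18 rose and 0 fell in resistant 2. The response was higher in 20 and lower in 1. The count of rising genes in resistant 2 rests on single libraries: it was 6 without resistant 2 treated replicate 3 and 11 without treated replicate 2. It was 11, 9 and 32 without resistant 2 DMSO replicate 1, 2 and 3, and 33 with the block within populations. Without these DMSO replicates the falling genes in parental cells were 14, 13 and 15. PRIM1, the primase subunit that starts new strands, fell from 72.6, 59.6 and 67.5 CPM to 27.2, 23.8 and 26.2 CPM in parental cells and rose from 9.89, 10.2 and 13.002 CPM to 13.2, 16.6 and 19.2 CPM in resistant 2 (difference 1.85 ± 0.193 (SE), adjusted p = 1.02e-05). ZNF367, a zinc finger transcription factor of proliferating cells, was not called in parental cells (38.9, 32.5 and 32.3 CPM and 27.7, 26.8 and 27.04 CPM) and rose from 4.37, 6.51 and 11.7 CPM to 13.7, 19.7 and 24.6 CPM in resistant 2.

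Promoter sequence shared by these genes was described with the letters known for cell cycle control. The E2F motif of G1/S genes was searched as TTTCCCGC or TTTGGCGC, and the cell cycle homology region (CHR) of G2/M genes as TTTGAA or TTTAAA, on both strands. The E2F letters were in 15 of 30 G1/S promoters (50%) against 2.31% of all 27305 promoters, and the CHR letters in 26 of 30 G2/M promoters (86.7%) against 24.3%. These lists hold genes known to be cell cycle regulated, so their shares are a description of the lists. Of 298 promoters of protein-coding genes that rose in resistant 2 with a higher response there, 10.7% held the E2F and 29.9% the CHR letters, against 3.53% and 16.7% of the promoters of all tested protein-coding genes. The promoter of ZNF367 (chr9:96418321-96418620, minus strand), with its E2F match in capitals 21 bases before the start site, and that of the kinetochore gene NUF2 (chr1:163321704-163322003, plus strand), with its CHR match in capitals just after the start site, stand for these groups (RefSeq, GRCh38.p14).
ZNF367: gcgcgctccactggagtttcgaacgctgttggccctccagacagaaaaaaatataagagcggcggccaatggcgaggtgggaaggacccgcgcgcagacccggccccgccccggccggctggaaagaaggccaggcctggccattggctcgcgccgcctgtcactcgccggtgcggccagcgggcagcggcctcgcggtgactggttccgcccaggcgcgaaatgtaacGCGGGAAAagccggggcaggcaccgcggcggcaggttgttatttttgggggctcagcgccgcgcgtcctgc
NUF2: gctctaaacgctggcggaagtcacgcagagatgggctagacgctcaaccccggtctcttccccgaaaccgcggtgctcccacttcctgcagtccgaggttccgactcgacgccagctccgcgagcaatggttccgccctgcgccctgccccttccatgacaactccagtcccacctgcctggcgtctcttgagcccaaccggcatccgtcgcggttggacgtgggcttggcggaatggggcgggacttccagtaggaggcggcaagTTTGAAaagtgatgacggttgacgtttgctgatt
NUF2 fell from 93.8, 80.1 and 91.8 CPM to 52.6, 54.9 and 59.6 CPM in parental cells and rose from 16.1, 14.2 and 16.3 CPM to 24.5, 23.2 and 25.1 CPM in resistant 2, and the responses differed by 1.27 ± 0.118 (SE) (adjusted p = 3.67e-06).

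Of 16 histone genes, 11 rose in parental cells and 6 fell in resistant 2, and the response was lower in resistant 2 for 12. The linker histone HIST1H1C rose from 4.96, 6.25 and 5.28 CPM to 29.3, 27.4 and 30.5 CPM in parental cells and fell from 35.7, 36.5 and 42.6 CPM to 18.1, 13.9 and 19.4 CPM in resistant 2. The count of falling histone genes in resistant 2 was 2 without its DMSO replicate 3 and 3 without its DMSO replicate 2 or its treated replicate 1 or 2. Histone genes have near-identical copies, and their transcripts mostly lack poly(A) tails while these were mRNA libraries, so their levels are uncertain.

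Most genes of amino acid supply fell in parental cells, and few were called in resistant 2. ATF4 is the transcription factor of the amino acid and stress response, and of 28 of its targets 23 fell in parental cells and 3 rose, against 1 and 4 in resistant 2, where 3 fell with the block within populations or without DMSO replicate 3. The response was higher in resistant 2 for 24, lower for 1, and the median difference was 1.30. Asparagine synthetase (ASNS) fell from 522, 619 and 743 CPM to 99.3, 92.3 and 99.5 CPM in parental cells. In resistant 2 it stood at 446, 445 and 324 CPM with DMSO and 346, 382 and 290.1 CPM with the drugs. These groups overlap, while the treated library was lower than the DMSO library of the same number in all 3 pairs, and the difference was 2.42 ± 0.213 (SE) (adjusted p = 2.43e-06). PHGDH, which begins serine synthesis, fell from 361, 413 and 373 CPM to 82.4, 74.5 and 81.4 CPM in parental cells and was at 296, 282 and 267 CPM and 292, 288 and 289.8 CPM in resistant 2. PSAT1, the next enzyme of that pathway, had a response of -2.32 in parental cells and a difference of 2.10 (adjusted p = 6.23e-07). The pseudokinase TRIB3, induced by ATF4, went from 318, 387 and 345 CPM to 68.2, 52.9 and 69.7 CPM and from 353, 224 and 158 CPM to 318, 265 and 217 CPM. The others named for large positive differences among falling genes were HPGDS, MCTP1 and SLC16A7. HPGDS, a prostaglandin D synthase, stood at 27.4, 23.8 and 32.1 CPM and 3.08, 3.23 and 3.61 CPM in parental cells and had 31 and 13 reads over the resistant 2 libraries. Its difference was not called in edgeR (1.66, adjusted p = 0.0988). SLC16A7, a carrier of lactate and pyruvate, fell from 109, 105 and 130.02 CPM to 31.3, 32.5 and 35.8 CPM in parental cells and rose from 19.1, 15.8 and 19.04 CPM to 24.9, 25.6 and 25.2 CPM in resistant 2 (difference 2.23 ± 0.137 (SE), adjusted p = 1.09e-07). MCTP1, a calcium-binding membrane protein, fell from 45.6, 49.9 and 61.3 CPM to 6.21, 8.31 and 8.62 CPM in parental cells and was at 4.74, 4.48 and 3.704 CPM and 3.19, 3.604 and 3.58 CPM in resistant 2.

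Further metabolic and biosynthetic lists also held more falling than rising genes in parental cells. Of 26 genes of glutathione and of NRF2, the transcription factor of oxidative stress, 20 fell in parental cells and 9 in resistant 2 (17 with the block within populations), and the response was higher in resistant 2 for 18. The aldo-keto reductase AKR1C3, whose close paralogs can share its reads, fell from 481, 479 and 534 CPM to 103, 103 and 118 CPM in parental cells and from 1021, 975 and 917 CPM to 589, 603 and 546 CPM in resistant 2, so both populations responded and the size differed (1.45 ± 0.112 (SE), adjusted p = 7.66e-07). Glutathione peroxidase 2 (GPX2) rose in both and went from 0.0579, 0.0748 and 0.00888 CPM to 145, 118 and 121 CPM in parental cells and from 0.096, 0.0542 and 0.0651 CPM to 10.9, 5.68 and 8.22 CPM in resistant 2. Of 27 genes of sterol synthesis and uptake, 17 fell in parental cells and 1 in resistant 2, and the response was higher in 16. STARD4, a carrier of cholesterol, went from 369.8, 474 and 613 CPM to 78.8, 105 and 108 CPM and from 333, 366 and 324 CPM to 228, 277 and 212 CPM. Of 19 ribosomal protein genes 12 fell in parental cells and 0 in resistant 2, and the response was higher in 8. With quantile normalization these became 3 falling in parental cells and 3 with a higher response.

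**Figure D3:**
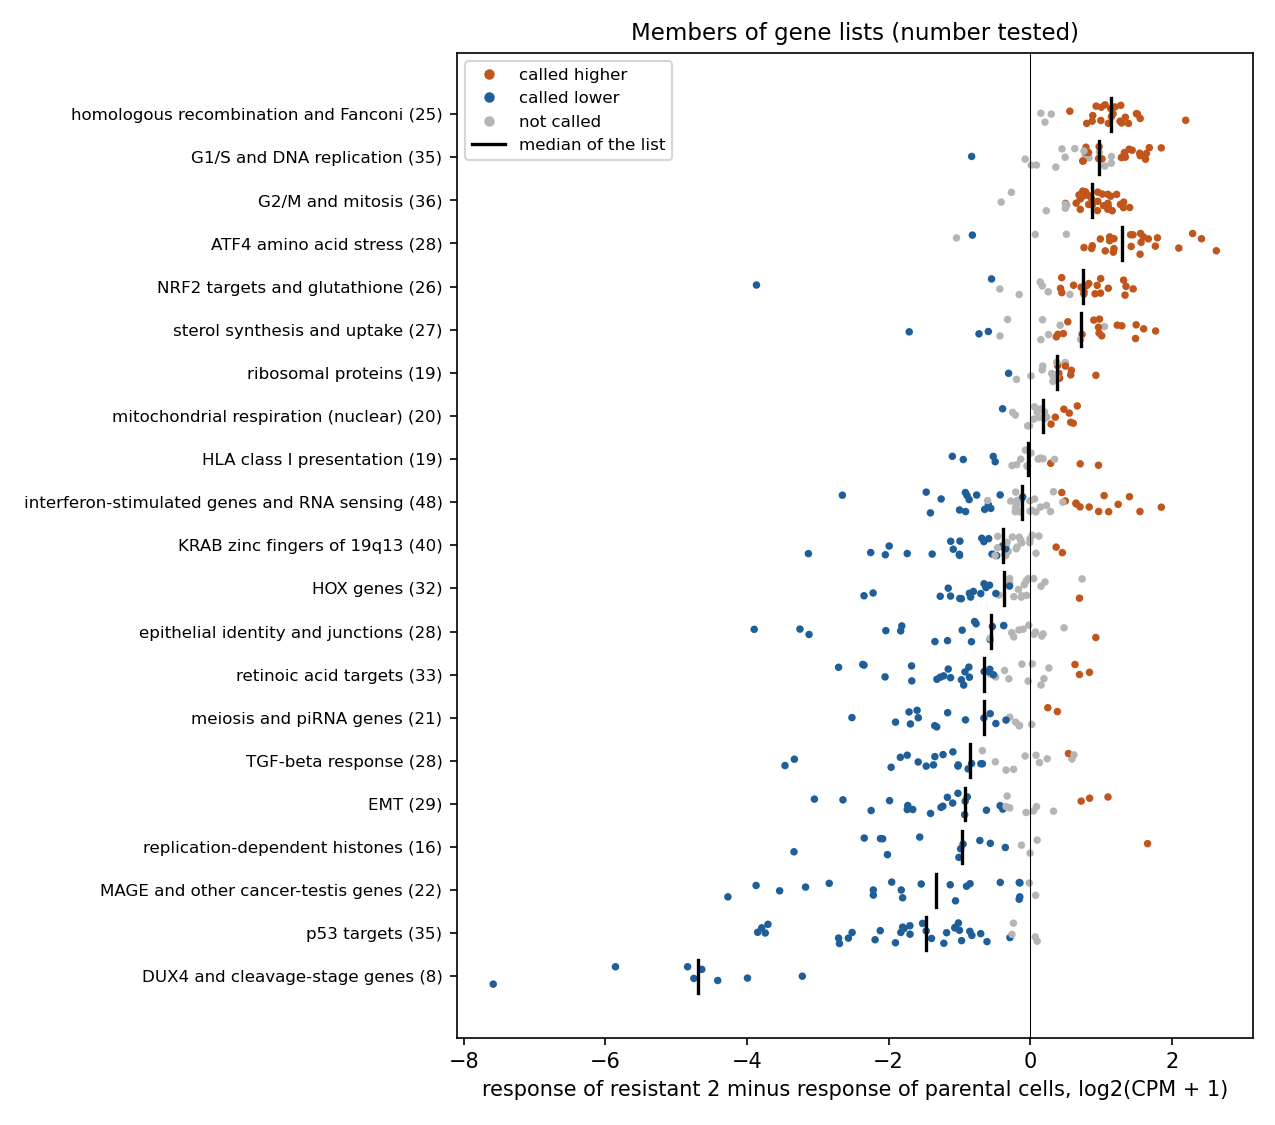
Each point is 1 tested member of a gene list (rows, with the number tested), placed by its response in resistant 2 minus its response in parental cells in log2(CPM + 1), and black bars mark the median of each list. Lists of cell cycle, repair and ATF4 genes lie mostly to the right of 0 (medians of 0.87 to 1.30), and the p53 list to the left (median of -1.47). The cancer-testis and DUX4 lists also lie to the left, which for 5 and 7 of their members the filter on low values fixed.

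In lists of epithelial-mesenchymal transition, TGF-beta and migration genes, more members rose than fell in parental cells. In resistant 2, where most of them were higher without the drugs, more fell than rose. Of 29 genes of epithelial-mesenchymal transition, 18 rose and 6 fell in parental cells, against 6 and 12 in resistant 2, and 21 were higher in resistant 2 than in parental cells with DMSO (6527 of all genes were, 30.9%). The response was lower in resistant 2 for 19 and higher for 3. The collagen crosslinker LOX went from 0.19, 0.133 and 0.151 CPM to 4.24, 4.099 and 4.22 CPM in parental cells and from 26.96, 22.5 and 24.9 CPM to 13.1, 11.98 and 13.8 CPM in resistant 2. The gelatinase MMP2 went from 0.0414, 0.0332 and 0.0178 CPM to 4.27, 4.696 and 4.03 CPM in parental cells and was at 678, 899.9 and 1252 CPM and 568, 757 and 1002 CPM in resistant 2, far above every parental library and lower with the drugs in each of 3 numbered pairs. Vimentin (VIM), an intermediate filament of mesenchymal cells, fell in both, from 1301, 1211 and 1230.3 CPM to 371, 354 and 362 CPM and from 1598, 1386 and 1453 CPM to 914, 703 and 707 CPM, with a higher response in resistant 2 (0.84 ± 0.145 (SE), adjusted p = 0.000523). N-cadherin (CDH2) rose from 3.16, 2.73 and 2.74 CPM to 11.2, 10.6 and 10.4 CPM in parental cells and was not called in resistant 2 (83.9, 74.9 and 73.7 CPM and 75.5, 76.3 and 71.3 CPM). The proteoglycan versican (VCAN) had the second largest negative difference selected, -5.97 ± 0.472 (SE) (adjusted p = 9.74e-07), with 0.538, 0.391 and 0.329 CPM and 93.4, 58.7 and 60.5 CPM in parental cells and 21.98, 39.3 and 54.8 CPM and 17.4, 31.3 and 41.6 CPM in resistant 2.

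Of 28 genes that answer TGF-beta, 18 rose and 5 fell in parental cells. In resistant 2, 4 rose and 9 fell, and the response was lower in 17. Thrombospondin 1 (THBS1), a matrix glycoprotein that activates TGF-beta, rose from 2.99, 4.504 and 5.704 CPM to 34.9, 30.01 and 30.2 CPM in parental cells and fell from 139, 158 and 223 CPM to 103, 97.4 and 112 CPM in resistant 2. Of 42 genes of migration and matrix breakdown, 20 rose and 8 fell in parental cells, where 36% of all genes rose and 26.9% fell. In resistant 2, 5 rose and 16 fell, and the response was lower in 23. Integrin alpha 3 (ITGA3), a laminin receptor, rose from 23.5, 28.6 and 22.9 CPM to 101, 80.6 and 82.4 CPM and fell from 819.7, 599.6 and 727 CPM to 605, 397 and 448 CPM. The counts of genes that fell in resistant 2 move with single libraries: 6 to 10 for the transition list, 4 to 9 for TGF-beta and 9 to 17 for migration. Counts of 7 or fewer, 5 or fewer and 10 or fewer for these lists came without resistant 2 DMSO replicate 1 or 2 or treated replicate 3. Rising genes in resistant 2 numbered 2 for TGF-beta without its treated replicate 2 or 3 or DMSO replicate 2. Among fibroblast markers COL1A1, COL1A2, FAP and POSTN were not tested. Over the 8 tested the summed level was 69.7 to 88.7 CPM in parental DMSO, 43.1 to 50.1 CPM in parental treated, 25.1 to 26.6 CPM in resistant 2 DMSO and 21.9 to 27.3 CPM in resistant 2 treated libraries.

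The 4 genes named for opposite calls, ranked by the smaller of the 2 absolute responses, were CA2, CPA4, ANKRD1 and TMEM132B, each up in parental cells and down in resistant 2. Carbonic anhydrase 2 (CA2), which interconverts carbon dioxide and bicarbonate, stood at 4.12, 4.38 and 4.93 CPM in parental DMSO and 47.4, 64.3 and 69.4 CPM in parental treated libraries. It went from 53.7, 32.97 and 25.6 CPM to 17.3, 10.1 and 7.51 CPM in resistant 2. Treated and untreated libraries did not overlap in either population, and the responses of 3.47 and -1.61 differed by -5.08 ± 0.404 (SE) (adjusted p = 1.02e-06). Carboxypeptidase A4 (CPA4) rose from 6.95, 6.04 and 6.397 CPM to 51.5, 38.8 and 32.7 CPM and fell from 237, 359 and 340.1 CPM to 115, 100.5 and 88.6 CPM (difference -4.07 ± 0.249 (SE), adjusted p = 1.05e-07). ANKRD1, a known target of the YAP and TAZ coactivators, rose from 5.099, 7.91 and 10.8 CPM to 25.7, 34.3 and 34.9 CPM and fell from 276, 433 and 551 CPM to 143, 151 and 139 CPM. TMEM132B, a transmembrane protein gene, rose from 0.166, 0.166 and 0.222 CPM to 1.83, 1.799 and 1.69 CPM and fell from 21.7, 22.5 and 20.9 CPM to 7.26, 7.201 and 6.83 CPM. For CPA4, ANKRD1 and TMEM132B the treated resistant 2 libraries remained above the treated parental ones, and for CA2 they were below.

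**Figure D4:**
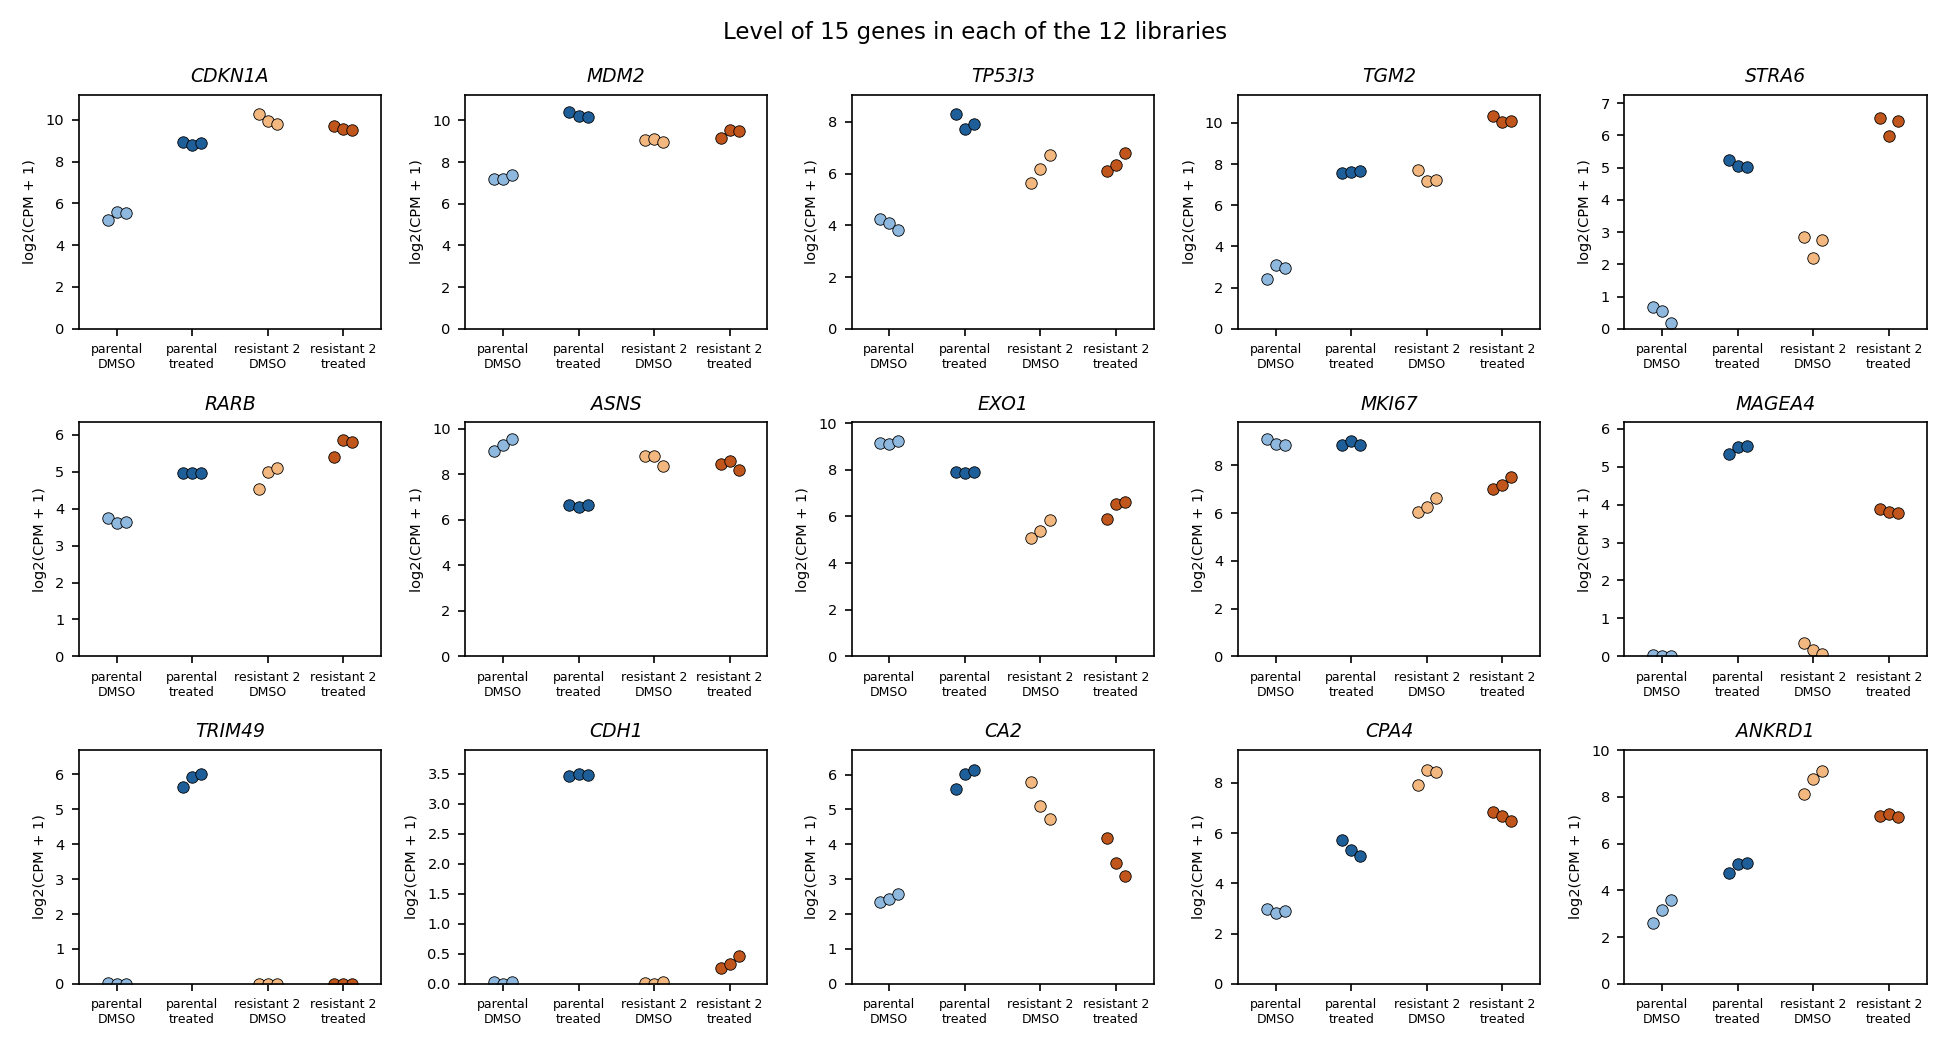
Each point is 1 library, with its level in log2(CPM + 1) on the y axis and the 4 groups on the x axis, for 15 genes described in the text. TGM2, STRA6, RARB and MAGEA4 rise in both populations, TRIM49 and CDH1 are high in treated parental libraries, and CA2, CPA4 and ANKRD1 rise in parental cells and fall in resistant 2.

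A further 344 genes rose and 357 fell in resistant 2 without a call in parental cells. The difference of responses was called for 224 and 233 of them, and the genes below were selected among these. The 6 selected among those that rose were ADGRG3, ARTN, ZNF367, AMDHD1, USH1C and RAD54L. Artemin (ARTN), a ligand of the GDNF family, rose from 4.56, 3.85 and 5.39 CPM to 26.3, 27.2 and 34.9 CPM in resistant 2, against 11.995, 12.4 and 7.99 CPM and 15.7, 12.9 and 13.4 CPM in parental cells, so treated resistant 2 libraries were the highest of all (difference 2.08 ± 0.24 (SE), adjusted p = 2.35e-05). ADGRG3, an adhesion G protein-coupled receptor, rose from 0.279, 0.162 and 0.0279 CPM to 4.66, 4.002 and 3.12 CPM in resistant 2 and stayed below parental libraries (11.6, 15.6 and 12.4 CPM and 9.16, 12.4 and 14.7 CPM). AMDHD1, an enzyme of histidine breakdown, and the scaffold protein gene USH1C differed by 1.59 and 1.59 (adjusted p = 5.14e-05 and 0.0019). Those selected among falling genes were DEPTOR, CCR1, ADGRF4, SAT1, KIRREL3 and CARD16, all of them far higher in untreated resistant 2 than in parental cells. DEPTOR, an inhibitor of the kinase mTOR, fell from 116, 83.02 and 58.5 CPM to 29.3, 19.8 and 14.8 CPM in resistant 2 and was at 5.02, 5.02 and 5.58 CPM and 5.92, 5.68 and 5.43 CPM in parental cells (difference -2.07 ± 0.339 (SE), adjusted p = 0.000363). SAT1, which acetylates polyamines, fell from 1139.6, 1559 and 1015 CPM to 635, 781 and 489.7 CPM there, against 92.4, 145 and 157 CPM and 162, 207 and 196 CPM. For the chemokine receptor CCR1, ADGRF4, KIRREL3 and CARD16 the parental level was below 1 CPM in all 6 libraries, and the differences ran from -1.58 to -1.50.

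Genes on which decitabine acts, or which act on it, differed in part. DNMT1, the maintenance methyltransferase that decitabine traps, stood at 245, 246 and 201 CPM and 196, 185 and 185 CPM in parental cells (not called, adjusted p = 0.108) and rose from 50.9, 55.98 and 76.9 CPM to 78.7, 82.1 and 104 CPM in resistant 2 (difference 0.81 ± 0.206 (SE), adjusted p = 0.00643). DNMT3B, a de novo methyltransferase, rose in both, from 10.1, 9.16 and 7.64 CPM to 19.2, 22.8 and 21.2 CPM and from 2.65, 3.78 and 3.12 CPM to 7.02, 7.51 and 8.71 CPM, with a difference of -0.08 ± 0.19 (SE) (adjusted p = 0.759). Of 17 genes of DNA methylation 2 had a higher and 0 a lower response in resistant 2 (17.5% and 28.7% of all genes), and UHRF1 was not tested. The higher count was 6 with the block within populations, 4 without resistant 2 treated replicate 1, and 7, 5 and 4 without its DMSO replicate 1, 2 and 3. The kinase DCK, which activates decitabine, was called in neither population (difference 0.45 ± 0.183 (SE), adjusted p = 0.0618). The nucleoside transporter SLC29A2 fell from 25.9, 33.1 and 22.01 CPM to 15.2, 15.6 and 15.98 CPM in parental cells and rose from 2.09, 1.99 and 1.57 CPM to 3.22, 3.37 and 3.95 CPM in resistant 2 (difference 1.39 ± 0.197 (SE), adjusted p = 0.000122). RRM2, the small subunit of ribonucleotide reductase, which makes deoxynucleotides, fell in parental cells (-0.93) with a difference of 1.55 ± 0.388 (SE) (adjusted p = 0.00597), and its p53-induced relative RRM2B rose from 55.7, 52.3 and 63.95 CPM to 199.7, 209.7 and 213 CPM in parental cells and was at 579, 522 and 432 CPM and 505, 588 and 501 CPM in resistant 2. Cytidine deaminase (CDA), which inactivates decitabine, rose from 0.505, 0.316 and 0.267 CPM to 1.89, 1.93 and 1.81 CPM in parental cells and was at 0.113, 0.0993 and 0.14 CPM and 0.194, 0.15 and 0.149 CPM in resistant 2.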

How the data were processed

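RNA sequencing libraries of 12 samples (4 groups of 3) were compared, out of 18 in the series, with groups taken from the labels. The libraries were made with a stranded mRNA kit, per the labels' protocols, and the strand setting of the counting is not given in the sources used here, so overlapping antisense genes cannot be told apart from their partners. The submitters' processing notes name FastQC, MultiQC, STAR, featureCounts, DESeq2 and the GRCh38 (hg38) build, with no versions. The authors deposited 2 tables. The signal values of the DMSO table were made by the authors by dividing read counts by size factors, per the labels, and from them whole reads were recovered by its smallest steps within 0.01 read. The deposited treated table was made alike and taken as another unit, because its values have lost their decimal points. For each gene of the treated table the candidate positions of the point were weighed over the 9 treated libraries of the series. The model of replicate spread favours treated levels near the DMSO level and a treatment shift that is alike in all populations of the series. It thus leans towards equal responses, while their difference is the quantity reported. A gene was used where 1 set reached a posterior of 99%. Of 24981 candidate genes 20919 were resolved (83.7%), less often among low genes (59.8% in the lowest of 4 classes of level, 97.4% in the highest). In DMSO values with the points removed as a test, 16984 genes were resolved, 12 of them wrongly. The model of this test favoured levels near the restored treated values, which had themselves been restored with the DMSO values. The number of wrong genes is therefore not an independent measure of the accuracy.

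Reads were scaled with TMM (edgeR 4.0.16), and genes with at least 10 reads in at least 3 libraries were tested as log2(CPM + 1) with limma 3.58.1 in R 4.3.3 (variance trend, 1 model over the 4 groups). The fit was tested on simulated data. Gene names are those of GENCODE for 57447 of 58051 identifiers. The report names, among called genes with at least 5 CPM in a group and no overlap of libraries, the 6 with the largest difference in each of 4 classes and 4 with opposite calls, up to 4 members per list of 39 lists, and genes fixed by name. The members and lists were chosen with earlier results of these data known. Replicates differed from each other by more than sampling noise in every group (chi-square per degree of freedom of 7.94 to 205), so none was counted as a copy.

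Titles number the replicates. Over 11090 genes, deviations of same-numbered DMSO and treated libraries correlated at 0.786, 0.872 and 0.898 in resistant 2 and at 0.551, -0.362 and 0.46 in parental cells, so the numbers pair the resistant 2 libraries only. Alternatives were 25: other scalings, pseudocount, filters, edgeR, DESeq2 1.42.0, all 18 libraries, blocks, restorations and each library left out. The block within populations and the restoration from treated libraries alone were added after the data were seen. The alternative restorations kept the same restored values and changed only which genes were used, so they do not check the values. Results for some genes are not reported here.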

Additional observations from a re-analysis of the deposited data

Results flagged for a closer look

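The responses of the populations differed by the test of the difference itself (limma, adjusted p) for 3691 genes with a higher and 6049 with a lower response in resistant 2. Among the genes named, 26 were in addition called in opposite directions in the populations.

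Named genes that rose in parental cells and fell in resistant 2 were led by CA2 (-5.08), CPA4 (-4.07), CDKN1A (-3.85) and ANKRD1 (-3.38), as differences of log2 responses. The histones HIST1H1C and HIST2H2BE were at -3.34 and -2.08. Matrix and adhesion genes were THBS1 at -3.33, LOX at -3.05 and ITGA3 at -2.35. The others were TMEM132B at -2.71, ELOVL2, an enzyme that lengthens polyunsaturated fatty acids, at -1.56, and PRRX1, a mesenchymal transcription factor, at -1.09.

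Named genes that fell in parental cells and rose in resistant 2 were mostly of replication, repair and division. Names were drawn in part from lists of such genes, so this describes the naming. The make-up of all 182 genes with this pattern was not tested. EXO1 was at 2.20, the primase PRIM1 at 1.85 and the clamp loader subunit RFC4 at 1.68. The partners of BRCA1, BARD1 and BRIP1, were at 1.52 and 1.50. Of mitotic genes, FOXM1 was at 1.40, cyclin A2 (CCNA2) at 1.32, the kinase AURKB at 1.32, the phosphatase CDKN3 at 1.32 and NUF2 at 1.27. The transporters SLC16A7 and SLC29A2 were at 2.23 and 1.39. The fatty acid desaturases FADS2 and FADS1, neighbours on chromosome 11, were at 1.98 and 1.75.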

How the results depend on the processing

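Of 171 named genes called, 140 kept their call and direction under every alternative that tested them, and 8 of 16 named genes not called were called under at least 1 (among them CCNB1, DCK, DHRS3, MYC, RARA, RARB and TET1). Quantile normalization gave 5627 genes with a higher response, and restoration at a stricter posterior gave 3916 higher and 4238 lower of 17552 (48.0% higher). Leaving out 1 library gave 2960 to 4678 genes with a higher and 4240 to 5915 with a lower response. In parental cells it gave 5678 to 7643 rising and 4964 to 6810 falling genes, and in resistant 2 1265 to 1860 rising and 766 to 1570 falling. With the replicate block 3748 genes had a higher and 6168 a lower response, and with the block within populations 5054 and 7312 did, and 2789 rose and 3091 fell in resistant 2. The lowest counts of lower responses and of rising genes in parental cells came without a parental treated library, where fewer genes passed the filter. The cause of these changes was not tested. ABCA1 and EPCAM turned direction, to 0.14 and 0.29 in edgeR and to 0.17 and 0.35 in DESeq2 (adjusted p = 0.564, 0.642, 0.552 and 0.629), where responses are ratios with no 1 CPM added. In edgeR 19 named genes lost their call, among them TRIM43B, TRIM49, LEUTX, ZNF677, MAGEC2, TKTL1 and GTSF1. Of the 3691 and 6049 genes called, edgeR gave the same direction for 3659 and 5907, and the opposite direction with a call for 8 and 13. It called 3372 and 4295 of them in the same direction. Of the genes with a lower response, 3857 had a lowest group mean under 1 CPM, and edgeR called 2222 of these in that direction. Of the 2192 at 1 CPM or more it called 2073. Low genes were restored less often, so fewer of them could be tested.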

Other observations

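Interferon-stimulated genes, which defend against viruses, had no common direction. Of 48 tested, 21 rose and 14 fell in parental cells, and the response in resistant 2 was higher for 13 and lower for 15. Over all genes it was higher for 17.5% and lower for 28.7%. TRIM22, an antiviral ubiquitin ligase, stood at 0.902, 1.01 and 1.09 CPM and 14.5, 12.1 and 13.6 CPM in parental cells and at 69.6, 63.9 and 58.8 CPM and 70.3, 73.1 and 76.5 CPM in resistant 2 (difference -2.65 ± 0.129 (SE), adjusted p = 1.4e-08). The GTPase GBP1 stood at 10.3, 11.9 and 14.2 CPM and 2.896, 3.48 and 3.34 CPM, and at 7.74, 5.84 and 5.696 CPM and 8.001, 6.698 and 8.27 CPM (difference 1.85 ± 0.201 (SE), adjusted p = 1.43e-05). Of 19 genes of class I antigen presentation, 3 had a higher and 4 a lower response, both below the shares over all genes. The lower ones were 2 without resistant 2 DMSO replicate 3. The higher ones were 1 without parental treated replicate 2 or 3 or parental DMSO replicate 1. The peptide transporter TAP1 differed by -0.94 ± 0.163 (SE) (adjusted p = 0.000521).

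Of 24 secreted factors of inflammation and senescence, 12 rose in parental cells and 4 in resistant 2 (8 with the block within populations). The response in resistant 2 was lower for 13 and higher for 3 (5 higher without its DMSO replicate 1). The EGF receptor ligand AREG stood at 5.82, 11.2 and 14.1 CPM and 93.6, 107 and 119.7 CPM in parental cells and at 50.2, 29.2 and 17.6 CPM and 38.5, 27.3 and 17.2 CPM in resistant 2 (difference -3.48 ± 0.535 (SE), adjusted p = 0.000224). Of 23 airway genes 17 had a lower response (11 without parental treated replicate 1), and the filter fixed the direction of any that passed only through treated parental libraries. The mucin MUC13 stood at 0.215, 0.258 and 0.329 CPM and 12.4, 14.9 and 11.9 CPM, and at 7.65, 5.79 and 4.85 CPM and 8.86, 8.298 and 6.94 CPM. Imprinted genes are expressed from 1 parental allele under control of DNA methylation. Of 22 tested, 10 rose and 5 fell in parental cells (36% and 26.9% of all genes did). In resistant 2, 3 rose and 1 fell (8.52% and 7.03% of all genes), and 0 and 1 rose without its treated replicate 3 and 2. The response was higher for 3 and lower for 9 (17.5% and 28.7% of all genes). PEG3 had 0 reads in parental DMSO libraries and stood at 2.996, 3.28 and 2.72 CPM after treatment, with 0 and 0 reads in resistant 2. Its difference was not called in edgeR, and its direction was fixed by the filter on low values.

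For the other lists the numbers of genes with a higher and a lower response follow, against 17.5% and 28.7% of all genes tested. Fatty acid synthesis and mitochondrial respiration genes were more often higher, and complement genes more often lower. Counts below 4 rest on few genes. Of 25 genes of the BCL2 family and cell death 5 had a higher and 6 a lower response, of 16 retinoid receptors and binding proteins 1 and 4, and of 15 genes of retinoic acid synthesis and breakdown 3 and 6. Of 21 genes of decitabine uptake and metabolism the numbers were 8 and 6 (3 lower without parental treated replicate 1). For 21 AP-1 and immediate early genes they were 2 and 5, with 4 higher without resistant 2 DMSO replicate 1 or 3, and 4 and 9 with the block within populations. For 19 ERK feedback genes they were 3 and 3, and 6 and 9 with that block. Without resistant 2 DMSO replicate 1 the higher ones were 5, and without parental DMSO replicate 2 or resistant 2 treated replicate 1 the lower ones were 6 and 5. For 21 genes of fatty acid synthesis 10 and 3 and for 16 ABC efflux pumps 1 and 2. For 5 CDK inhibitors they were 2 and 1, for 14 complement genes 2 and 7 and for 20 nuclear genes of mitochondrial respiration 7 and 1. Without resistant 2 DMSO replicate 1 the higher ones were 3 for the receptors and 3 for the pumps. Of 5 tested endothelial markers 3 had a lower response, at a summed level of at most 5.06 CPM in any library. The multidrug pump ABCB1 stood at 6.995, 6.91 and 7.37 CPM and 8.29, 8.69 and 8.08 CPM in parental cells and at 3.64, 5.76 and 4.998 CPM and 3.85, 6.901 and 6.57 CPM in resistant 2 (difference not called, adjusted p = 0.997).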
